A study of Oryza sativa Japonica Group with 10 samples.

Results

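The comparison described here set the mature part of the rice root after 6 days in nutrient solution against the same part after 2 days. It was defined by the sample labels alone and took 4 of the 10 libraries of the series, 2 from each day. The plants were Oryza sativa Japonica Group, cv. Nipponbare (GSOR-100), with no transgene or treatment named in any group. All had germinated in the dark, and at an age of 12 days they were moved from a solid substrate into Hoagland solution, a mineral nutrient solution, with the whole plant, roots included, in the light. Mature root was what was left of the root system after the tips, with their meristem and elongation zone, had been cut off, so it also held any lateral roots that stayed attached. Each library came from a pool of 6 plants. The tips of the same days gave 3 libraries per day and serve below for comparison; they also entered the model, so every p-value for mature root uses a spread estimated in part from them. Time in the solution cannot be told apart from the age of the plants or from the occasion of sampling, and in whole tissue a smaller share of cells of a type cannot be told apart from less RNA per cell.

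As a root tissue ages behind the tip, cells stop dividing and elongating, xylem vessels build thick cellulose walls and fill them with lignin, and the outer layers gain suberin, a waxy barrier. The mature zone takes up and assimilates mineral nutrients. Rice roots also make defence compounds there, among them diterpenoids formed by terpene synthases and then oxidised by cytochromes P450, and they secrete pathogenesis-related proteins into the cell wall space.

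The mature root libraries held 2776544 and 2161392 counts on day 2 and 2648858 and 3286439 counts on day 6, and 3 counts corresponded to 0.809 to 1.45 CPM, the unit used below, in which a read count is scaled to the size of its library by TMM. Of 33486 rows in the table, 19234 passed the filter on low counts and were tested. Marker groups matched the label in part. Lignin and phenylpropanoid enzymes took 0.654% to 1.09% of the counts in mature root against 0.304% to 0.519% in the tips. Root cap genes took 0.000756% to 0.011% against 0.00262% to 0.0422%, small shares whose ranges overlapped. Histones, which dividing cells make in quantity, also overlapped between the tissues, with 1.06% to 1.65% in mature root and 0.963% to 1.64% in the tips. Genes of light harvesting and photosynthetic electron transport took 0.548% to 0.939% in mature root and 0.17% to 0.279% in the tips.

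Libraries of the same day were not much closer to each other than to those of the other day. Pearson's r of log2 CPM across the tested rows, which are not independent replicates, was 0.802 between the day 2 libraries and 0.844 between the day 6 libraries. Across days it ran from 0.726 to 0.804, the highest between day 2 replicate 1 and day 6 replicate 2. The first principal component of the 4 libraries, with 49.7% of the variance, placed day 2 at -45.7 and -93.1 and day 6 at 107 and 31.5 for replicates 1 and 2. Day 6 replicate 1 was the library farthest from day 2.

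No row passed the test for a difference between the days. With edgeR's quasi-likelihood test and Benjamini-Hochberg adjustment over all tested rows, 0 rows were called at an adjusted p under 0.05, and the smallest adjusted p was 0.183. At an unadjusted p under 0.05 there were 1162 rows higher on day 6, 6.04% of those tested, and 910 lower, 4.73%. DESeq2, run as an alternative, called 257 rows higher and 116 lower, 1.47% and 0.663% of those it gave an adjusted p. The fold changes below are therefore given as measured sizes with their standard errors, and none of them is a call. To describe the rows in which both libraries of a day lay well clear of both libraries of the other, a row is termed separated when the lower of one pair was at least 2 times the higher of the other pair in CPM + 1, with a mean of at least 10 CPM on the higher day. There were 714 rows separated and higher on day 6, 3.71% of those tested, and 352 separated and lower, 1.83%. The row nearest the limit from outside had a gap of 1.999. The excess on the higher side depended on the libraries. With 1 of the 4 left out, a single library stands for its day and the gap is met more often. Without day 2 replicate 1 there were 1467 rows higher and 1825 lower, and without day 2 replicate 2 there were 1328 and 1501, so the lower side was then the larger. Without day 6 replicate 1 the counts were 1363 and 688, and without day 6 replicate 2 they were 2231 and 1043. Among rows with at least 10 CPM on a day whose days did not overlap, whatever the gap, the sides were near even, at 3304 higher and 3133 lower.

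**Figure D1:**
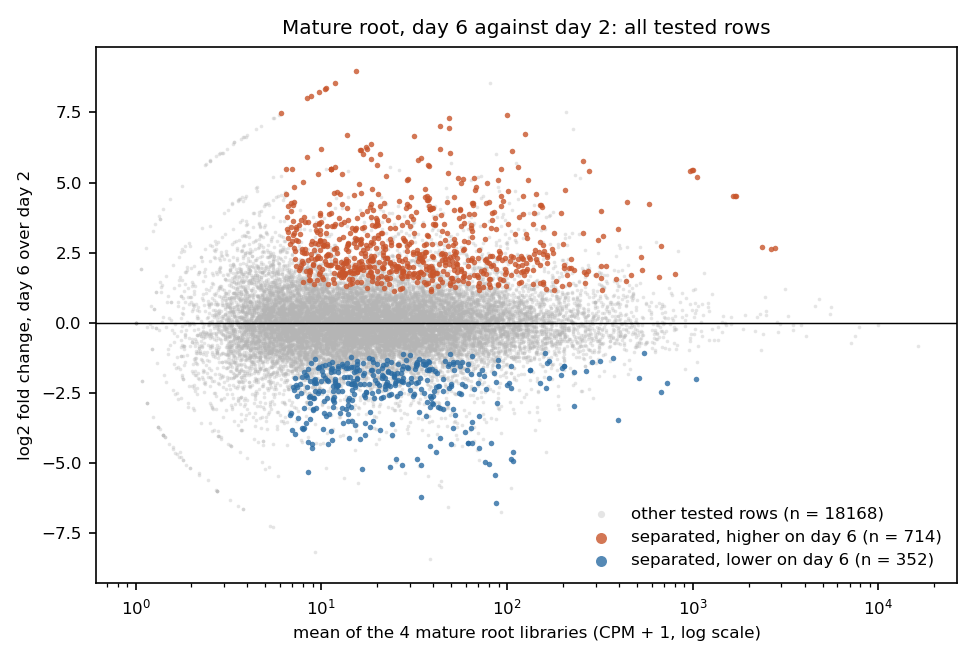
Each point is a tested row, with the mean level of the 4 mature root libraries (CPM + 1, log scale) on the x axis and the log2 fold change of day 6 over day 2 on the y axis. Orange points are the 714 rows separated and higher on day 6 and blue points the 352 separated and lower; the group of orange points at the right holds the SCP-like genes described below.

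Among described, separated rows with a mean of at least 20 CPM on the higher day, those with the largest log2 fold changes toward day 6 were all close to 0 on day 2. They included a chalcone synthase, an isoflavone reductase, peroxidases and AP2 domain proteins. Some rows below that level had larger fitted fold changes, such as the ribosomal protein L29 row LOC_Os06g51530, with 0 counts on day 2 and 18.3 and 20 CPM on day 6. A chalcone synthase, LOC_Os11g32650-ext, stood at 2.54 and 1.94 CPM on day 2 and at 304 and 190 CPM on day 6. Its log2 fold change was 6.74 with an SE of 0.94 (unadjusted p = 2.2e-05, adjusted p = 0.183). Chalcone synthase makes the first intermediate of flavonoids, and in the tips this row had a mean of 0 CPM on day 2 and 0.257 CPM on day 6. An isoflavone reductase, LOC_Os01g01660, was at 1.59 and 0.484 CPM on day 2 and at 343 and 50.2 CPM on day 6, with the day 6 libraries far apart from each other. Its log2 fold change was 7.41 with an SE of 1.27. The chalcone synthases and flavonoid enzymes as a group, added after its values were seen, stood out less. Of its 43 tested members 3 were separated and higher, 6.98% against 3.71% of all tested rows, and none lower. The group's median log2 fold change was 0.38, and 0.11 without day 6 replicate 1. Among the other phenolic and flavonoid enzymes, phenylalanine ammonia-lyase LOC_Os05g35290, which opens the phenylpropanoid pathway, was at 65.7 and 35.3 CPM on day 2 and 603 and 319 CPM on day 6. The most abundant gene of that enzyme, LOC_Os02g41680-ext, overlapped between days, with 3630 and 5390 CPM against 7960 and 5330 CPM.

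Other leading rows were a patatin, a sulfate transporter and transcription factors. The patatin LOC_Os08g37210, of a family of lipid-cleaving enzymes, had 0.953 and 0 CPM on day 2 and 116 and 74.2 CPM on day 6, and with 3 counts in all on day 2 its ratio was 156, with a 95% Clopper-Pearson counting interval of 53.2 to 761. The sulfate transporter LOC_Os01g52130 had 0.635 and 0 CPM on day 2 and 36.2 and 28.3 CPM on day 6, a ratio of 81.6 with an interval of 22.3 to 679. Such intervals cover the counting of reads only, not the spread between pools. The AP2 domain protein LOC_Os08g36920-ext, from a large family of plant transcription factors, was at 0.318 and 0 CPM on day 2 and 21.4 and 29.1 CPM on day 6. A second AP2 domain protein, LOC_Os09g28440, had 1.27 and 0 CPM and then 35.7 and 39.1 CPM. The glycosyltransferase LOC_Os01g31370 was at 0.953 and 0 CPM on day 2 and 87.1 and 34.3 CPM on day 6. A receptor kinase, LOC_Os09g37834-ext, was far from even on day 6, at 61.6 and 4.32 CPM against 0.318 and 0.484 CPM on day 2.

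By p-value alone, the leading row was an unannotated transcribed region. The region putative_nTAR.14900 was at 1.59 and 0.484 CPM on day 2 and 65.2 and 62 CPM on day 6, with a log2 fold change of 5.79 and an SE of 0.83 (unadjusted p = 1.13e-05). The chalcone synthase LOC_Os11g32650-ext came next. A dehydrogenase, LOC_Os09g23530, ranked after it at a higher level on day 2, with 61.6 and 77.4 CPM on day 2 and 875 and 556 CPM on day 6. Its log2 fold change was 3.36 with an SE of 0.53 (unadjusted p = 2.85e-05). The EF hand protein LOC_Os06g46950-ext, of the family of calcium-binding proteins, was at 21.3 and 10.2 CPM and then at 313 and 117 CPM. Cytokinin dehydrogenase LOC_Os01g56810-ext, an enzyme that breaks down the hormone cytokinin, was at 1.27 and 1.45 CPM on day 2 and 175 and 14.6 CPM on day 6. In all of these rows the day 2 and day 6 libraries did not overlap, and in several the day 6 libraries were themselves wide apart.

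**Figure D2:**
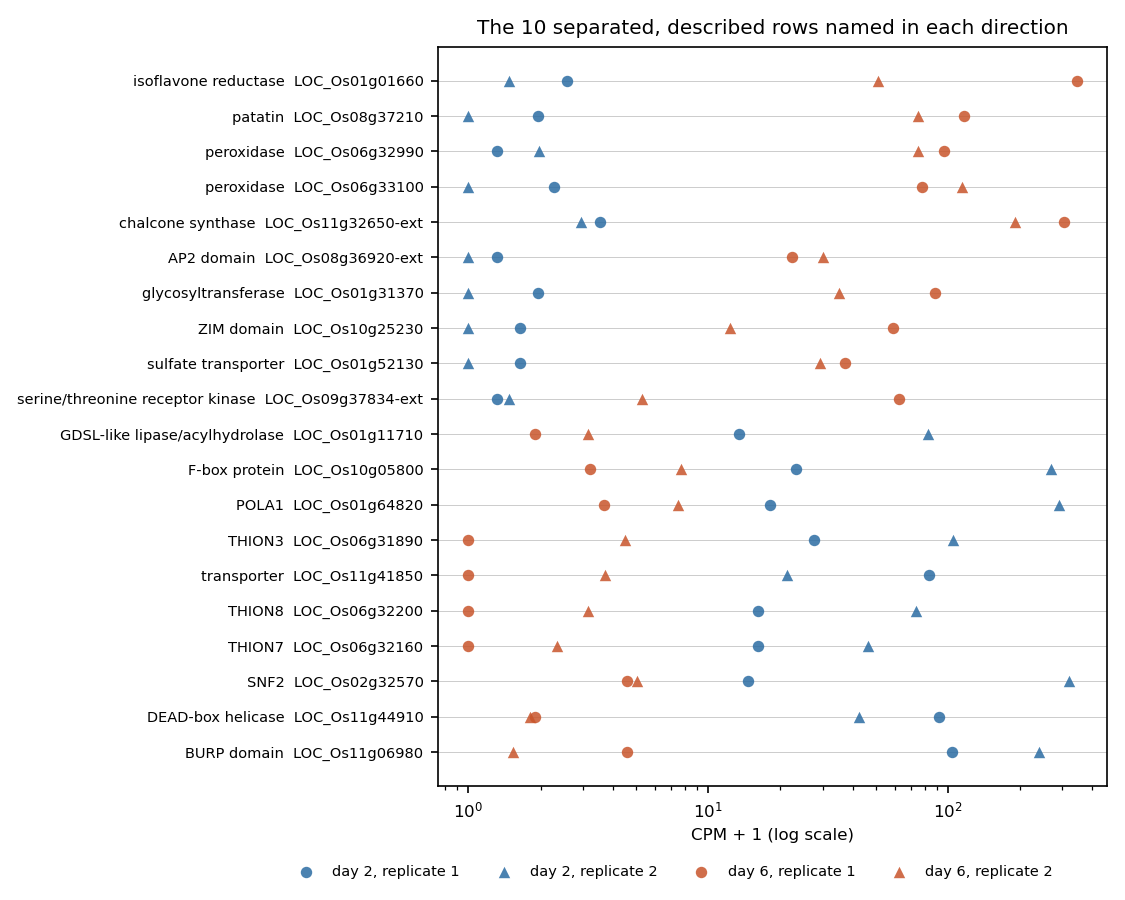
The 10 separated, described rows with the largest log2 fold change in each direction at a mean of 20 CPM or more on the higher day, with CPM + 1 on a log scale on the x axis; blue marks are day 2, orange marks day 6, circles replicate 1 and triangles replicate 2. In every row shown the blue and orange marks do not overlap, and for POLA1, SNF2 and the F-box protein the day 2 libraries lie far apart from each other.

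Toward day 2, the leading rows at the same minimum level were a BURP domain protein, thionins and proteins that act on DNA or RNA, and some of them were carried by 1 library. The BURP domain protein LOC_Os11g06980, of a plant-specific family with a shared C-terminal domain, was at 103 and 238 CPM on day 2 and at 3.57 and 0.54 CPM on day 6. Its log2 fold change was -6.43 with an SE of 1.19 (unadjusted p = 0.000251). In the tips it was at a mean of 0.489 CPM on day 2 and 0 CPM on day 6. The DEAD-box RNA helicase LOC_Os11g44910 was at 91.1 and 41.6 CPM on day 2 and at 0.893 and 0.809 CPM on day 6. DEAD-box helicases unwind RNA. The catalytic subunit of DNA polymerase alpha, POLA1 (LOC_Os01g64820), which starts DNA replication, was at 17.1 and 289 CPM on day 2 and at 2.68 and 6.47 CPM on day 6. The SNF2 family protein LOC_Os02g32570, a putative chromatin remodelling ATPase, had 13.7 and 318 CPM and then 3.57 and 4.05 CPM. An F-box protein, LOC_Os10g05800, had 22.2 and 268 CPM and then 2.23 and 6.74 CPM. In these last 3 rows day 2 replicate 2 was more than 10 times day 2 replicate 1.

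The most concentrated signal lay in 1 stretch of neighbouring gene models. SCP-like extracellular proteins, the family that includes the pathogenesis-related protein PR1 and is secreted into the wall space, had 22 tested members. Of these 15 were separated and higher and 1 separated and lower, 68.2% and 4.55% against 3.71% and 1.83% of all tested rows. All 15 of the higher rows had identifiers that begin with LOC_Os07g03, where 16 rows were tested. This family was picked out after its values were seen and is described without a test. The most abundant row, LOC_Os07g03279-ext, was at 659 and 830 CPM on day 2 and at 5750 and 3810 CPM on day 6. Next to it LOC_Os07g03409 stood at 136 and 139 CPM and then at 3330 and 2970 CPM, and LOC_Os07g03590-ext at 76.8 and 12.6 CPM and then at 2370 and 1530 CPM. The 18 rows with this beginning together took 0.305% and 0.281% of the counts on day 2 and 3.14% and 3.01% on day 6, a ratio of the means of 10.5. In the tips they took 0.117% to 0.431%, the highest in day 6 replicate 1. Several of these rows had nearly the same counts, such as LOC_Os07g03458, at 641, 809, 5420 and 3630 CPM, beside LOC_Os07g03279-ext. Near-identical copies can share reads, so the rows are not independent and the copy behind the signal is uncertain. If shared reads were counted at each copy, the sum holds them more than once, which was not tested. The most abundant row alone took 0.0748% and 0.0793% of the counts on day 2 and 0.486% and 0.429% on day 6, a ratio of the means of 5.94. Without LOC_Os07g03458, LOC_Os07g03279-ext and their neighbours, the chitinases, glucanases and pathogenesis-related proteins took 0.763% ± 0.0155 (SD, n = 2) of the counts on day 2 and 1.08% ± 0.0129 (SD, n = 2) on day 6.

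Outside that stretch the pathogenesis-related group was mixed. Of its 74 tested members there, 7 were separated and higher, 9.46% against 3.71% of all tested rows, and 2 were separated and lower, 2.7% against 1.83%. Their median log2 fold change was 0.33, against -0.0319 over all tested rows, and was -0.02 without day 6 replicate 2. With the stretch included, 22 of 90 were separated and higher, 24.4%, of which 15 were rows of the stretch, several of them with nearly the same counts. The Bet v I family protein LOC_Os12g36880-ext, of a class of small intracellular pathogenesis-related proteins, was at 55.2 and 62.9 CPM on day 2 and at 1260 and 938 CPM on day 6. Its neighbour in number, LOC_Os12g36830, was at 56.8 and 26.6 CPM and then at 1070 and 602 CPM. Thaumatins, a family of antifungal proteins, had 21 tested members, of which 3 were separated and higher, led by LOC_Os03g46070-ext at 6.35 and 2.42 CPM and then 142 and 34.5 CPM. The chitinase CHIT5 (LOC_Os05g33140), which cuts the chitin of fungal walls, was among the lower rows, at 8.57 and 15.5 CPM and then at 0.447 and 1.62 CPM. Glucanases of glycosyl hydrolase family 17, which the fixed group did not catch and which were added after their values were seen, had 8 of 26 tested members separated and higher. They included LOC_Os01g71350, at 110 and 120 CPM on day 2 and 393 and 408 CPM on day 6.

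Thionins, small cysteine-rich antimicrobial peptides, lay on the other side. This family too was added after its values were seen. Of 15 tested members 8 were separated and lower, against 1.83% of all tested rows, none was separated and higher, and all 8 lay in neighbouring identifiers that begin with LOC_Os06g31 or LOC_Os06g32. THION6 (LOC_Os06g32020) was at 62.2 and 180 CPM on day 2 and at 0.893 and 11.1 CPM on day 6. THION3 (LOC_Os06g31890) was at 26.7 and 104 CPM and then at 0 and 3.51 CPM. On both days replicate 2 was the higher library in each of these, while the days did not overlap. THION5 (LOC_Os06g31960) and the thionin precursor LOC_Os06g31930 had identical counts in every library, so this pair of rows can stand for a single signal. In the tips THION6 had a mean of 327 CPM on day 2 and 207 CPM on day 6, above mature root on both days. The unadjusted p for the difference of its time contrast between mature root and tip was 0.015.

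Terpene synthases, which form the carbon skeletons of terpenoids, were the fixed group with the highest share of separated rows. Of 26 rows 12 were tested, 6 of them were separated and higher, 50% against 3.71% of all tested rows, and none was separated and lower. Their median log2 fold change was 4.14 and lay at 1.2 in DESeq2, which also takes in the rows with few counts. The row with the highest level, LOC_Os04g09900-ext, described as an ent-kaurene synthase, an enzyme of the diterpene branch that also leads to gibberellins, was at 27 and 5.81 CPM on day 2 and at 464 and 115 CPM on day 6. LOC_Os04g10060, also described as an ent-kaurene synthase, was at 1.59 and 0.484 CPM and then at 154 and 14.6 CPM. On chromosome 2, LOC_Os02g36210 was at 6.67 and 0 CPM and then at 188 and 65 CPM, and LOC_Os02g36140 at 8.26 and 0 CPM and then at 134 and 61.5 CPM. The terpene synthase LOC_Os11g28530-ext was at 15.2 and 18.9 CPM and then at 456 and 65.8 CPM. Day 6 replicate 1 was above replicate 2 in each of these rows. The group as a whole took 0.01% and 0.00944% of the counts on day 2 and 0.126% and 0.0438% on day 6, and at most 0.00625% in any tip library. Among the remaining members LOC_Os03g22620 went the other way in size without being separated, at 18.4 and 34.4 CPM against 12.1 and 16.7 CPM.

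Cytochromes P450, the heme enzymes that oxidise such skeletons among many other substrates, had 26 of 121 tested members separated and higher, 21.5%, and 1 separated and lower, LOC_Os04g48170. Their median log2 fold change was 0.91 in mature root and 0 in the tips. In the identifier stretches that hold the separated terpene synthases, 7 of the 8 tested P450 rows were also separated and higher, a count made after the values were seen. These stretches were picked for their separated synthases. They held 79 tested rows of all kinds, of which 16 were separated and higher, these P450 rows and the synthases included, and 3 separated and lower. Over all tested rows the shares were 3.71% and 1.83%. In rice, genes of diterpenoid defence compounds are known to lie side by side in clusters. On the same stretch as the chromosome 4 synthases, LOC_Os04g09920 was at 5.72 and 5.32 CPM on day 2 and at 87.1 and 62.6 CPM on day 6, and LOC_Os04g10160 at 12.1 and 0 CPM and then at 215 and 30.2 CPM. Beside the chromosome 2 synthases, LOC_Os02g36030 was at 0.953 and 0 CPM and then at 60.3 and 17.3 CPM. Outside these stretches, LOC_Os06g37300 was at 3.18 and 2.42 CPM and then at 143 and 64.5 CPM, with a log2 fold change of 5.17 and an SE of 1.13. In the tips that row had a mean of 2.03 CPM on day 2 and 0 CPM on day 6, and the unadjusted p for the difference between the tissues in their time contrast was 0.000228. At a higher level, LOC_Os02g47470 was at 103 and 132 CPM and then at 469 and 384 CPM.

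**Figure D3:**
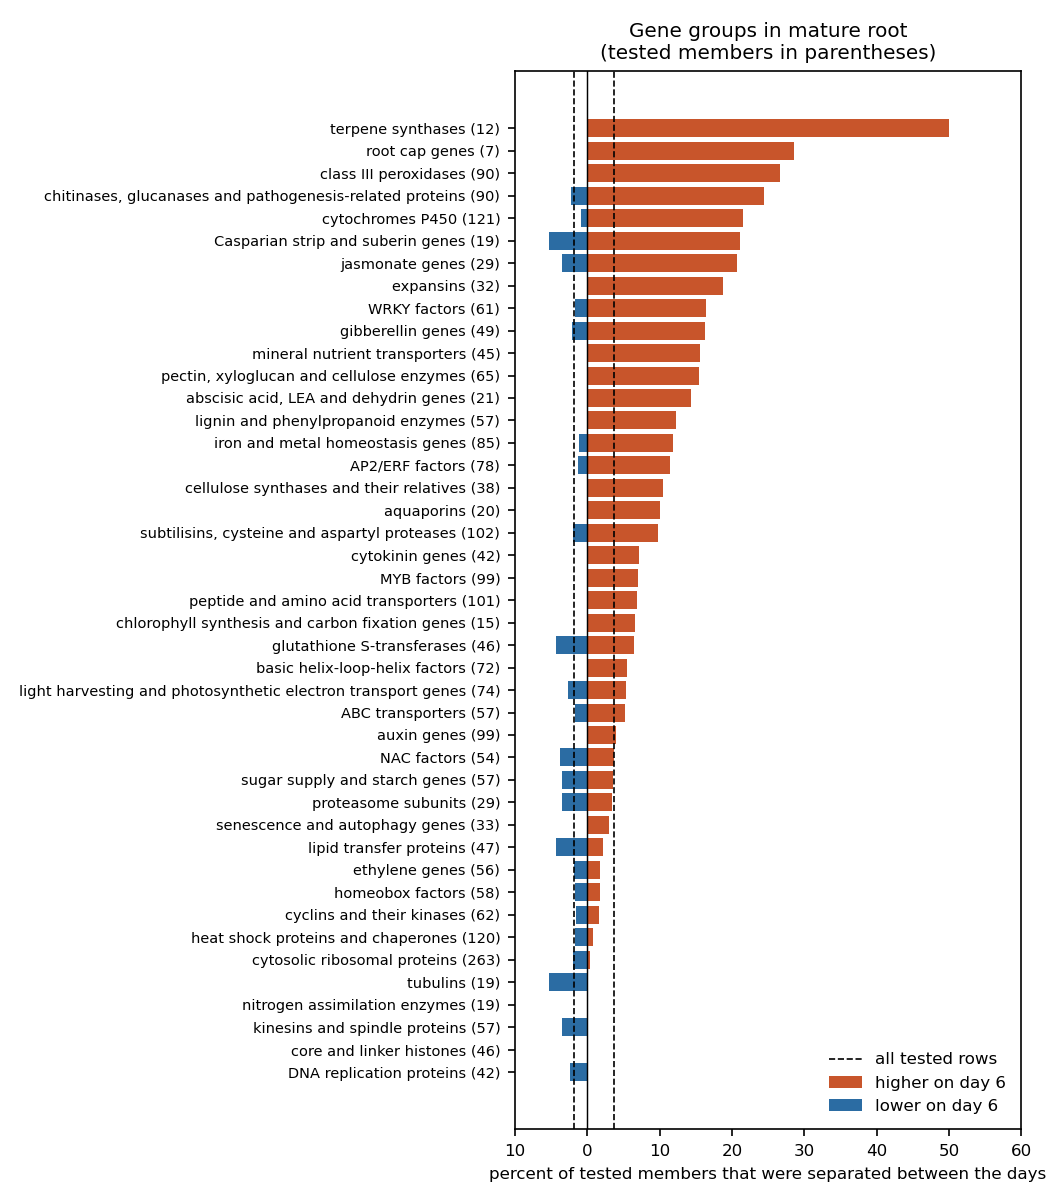
Share of tested members of each fixed gene group that was separated and higher on day 6 (orange, to the right) or separated and lower (blue, to the left), in percent; dashed lines mark the shares over all tested rows, 3.71% and 1.83%, and the number of tested members stands in parentheses. Terpene synthases, root cap genes, peroxidases, pathogenesis-related proteins and cytochromes P450 have the longest orange bars, and histones and DNA replication proteins have none.

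Class III peroxidases, secreted enzymes that cross-link lignin and other wall phenols, had 24 of 90 tested members separated and higher, 26.7%, and none separated and lower. The rows near 0 on day 2 included LOC_Os06g32990, at 0.318 and 0.968 CPM on day 2 and at 95.6 and 74.2 CPM on day 6. Its ratio was 143 with a 95% counting interval of 48.6 to 696. In LOC_Os06g33100, with 1.27 and 0 CPM and then 76.8 and 113 CPM, the tips also lay higher on day 6, with a mean of 8.33 CPM against 0 CPM. Abundant members differed less. LOC_Os05g04380-ext was at 276 and 156 CPM and then at 827 and 591 CPM, and LOC_Os01g19020-ext was at 200 and 199 CPM and then at 488 and 410 CPM, with a log2 fold change of 1.17 in mature root and 1.1 in the tips. The group took 0.714% and 0.804% of the counts on day 2 and 1.08% and 1.39% on day 6, while in the tips the days overlapped. Peroxidase genes are many and alike, and rows with neighbouring numbers such as LOC_Os03g25280 and LOC_Os03g25300 (2.86 and 2.42 CPM then 20.5 and 37.8 CPM, and 3.18 and 2.42 CPM then 25.9 and 39.1 CPM) may share reads.

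Lignin and phenylpropanoid enzymes had 7 of 57 tested members separated and higher, 12.3%, none separated and lower, and a median log2 fold change of 0.86. Laccases, which polymerise lignin together with peroxidases, supplied 4 of the 7. LOC_Os02g51440 was at 7.62 and 0 CPM on day 2 and at 224 and 139 CPM on day 6, and LOC_Os12g15920 at 7.94 and 10.6 CPM and then at 143 and 61.2 CPM. The abundant caffeoyl-CoA O-methyltransferase LOC_Os08g38900, of the monolignol branch, was at 629 and 605 CPM and then at 1580 and 1230 CPM, a non-overlapping gap just short of the 2-fold limit. The group's share of counts was 0.654% and 0.74% on day 2 and 1.09% and 1.04% on day 6. Casparian strip and suberin genes had 4 of 19 tested members separated and higher and 1 separated and lower, 21.1% and 5.26% against 3.71% and 1.83% of all tested rows. The glycerol-3-phosphate acyltransferase LOC_Os11g45400, of an enzyme family that builds suberin and cutin precursors, was at 0.635 and 2.42 CPM and then at 119 and 26.2 CPM. The lower row was a CASP, LOC_Os03g50300-ext, a scaffold of the Casparian strip, at 40 and 65.3 CPM and then at 12.1 and 14.6 CPM. The median of this group, 0.13, lay between -0.29 and 0.63 when 1 library was left out, so no direction is given for it.

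The named cellulose synthases differed in size and direction from one to the next. Of the 9 tested rows named CESA, 1 was separated and higher. That row, CESA9 (LOC_Os09g25490), was at 37.5 and 59 CPM on day 2 and at 452 and 150 CPM on day 6. CESA9 works with CESA4 and CESA7 in the thick secondary walls of rice. CESA4 (LOC_Os01g54620) was at 27.3 and 34.4 CPM and then at 48.2 and 61.5 CPM, and CESA7 (LOC_Os10g32980) at 38.1 and 40.2 CPM and then at 51.8 and 82.3 CPM. These partners thus lay higher in both day 6 libraries by less than the limit, and their day 6 replicate 2 was the higher one, whereas in CESA9 replicate 1 was the higher. CESA8 (LOC_Os07g10770) was at 94.6 and 114 CPM and then at 638 and 168 CPM, and CESA2 (LOC_Os03g59340) at 10.2 and 10.6 CPM and then at 89.8 and 8.9 CPM, which rests on day 6 replicate 1 alone. CESA3 (LOC_Os07g24190), with 145 and 182 CPM against 110 and 114 CPM, lay lower. In CESA9 the tip mean was 49.8 CPM on day 2 and 24.5 CPM on day 6, and the difference of the time contrast between the tissues had an unadjusted p of 0.000712.

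Among proteins that loosen or rebuild walls, the separated rows lay on the day 6 side. Expansins, which loosen walls in growing cells, had 6 of 32 tested members separated and higher, 18.8%, and none separated and lower. The beta-expansin LOC_Os09g29710 was at 8.89 and 0 CPM on day 2 and at 332 and 115 CPM on day 6 and had 0 counts in every tip library. Its neighbour LOC_Os09g29690 had 0 counts on day 2 and 15.6 and 4.86 CPM on day 6, at least 15.5-fold higher against a floor of 3 counts over both day 2 libraries. The expansin LOC_Os02g42650 was at 5.08 and 4.36 CPM and then at 242 and 15.4 CPM, again highest in day 6 replicate 1. Pectin, xyloglucan and cellulose enzymes had 10 of 65 tested members separated and higher, 15.4%, and none lower. The endoglucanase LOC_Os02g50490-ext, which cuts glucan chains, was at 28.6 and 22.3 CPM and then at 84.9 and 183 CPM. Of 102 tested proteases 10 were separated and higher and 2 lower, 9.8% and 1.96% against 3.71% and 1.83% of all tested rows. The higher ones included xylem cysteine proteinases, known in Arabidopsis from dying vessel cells. LOC_Os01g73980 was at 12.4 and 18.4 CPM and then at 505 and 66.1 CPM, and LOC_Os01g42790 at 1.59 and 2.9 CPM and then at 170 and 12.9 CPM. In both rows the replicates of day 6 differed more than 5-fold.

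Replicate 1 of day 6 was in fact the higher of its pair in 476 of the 714 separated rows on that side, 66.7%, against 47% of all tested rows. It was the library farthest from day 2 on the first principal component. Whether something particular to this pool moved the groups named here was not tested beyond leaving it out. Without it, the median log2 fold change of terpene synthases was 2.99, that of cytochromes P450 was 0.83 and that of SCP-like proteins was 2.43. Under DESeq2, with all libraries, 1.47% of all rows with an adjusted p were called higher and 0.663% lower. The calls on the higher side held 12 of the 82 pathogenesis-related rows with an adjusted p, 7 of 77 peroxidases and 7 of 99 cytochromes P450. They also held 2 of 9 terpene synthases and 4 of 59 WRKY factors, and those on the lower side held 8 of 15 thionins. Iron and metal homeostasis genes (75 rows), nitrogen assimilation enzymes (19 rows) and aquaporins (19 rows) had 0 calls on either side. Of the 12 pathogenesis-related calls 9 lay in the SCP-like stretch, whose rows are not independent, and 3 among the 67 rows outside it. Without day 6 replicate 1, cellulose synthases and their relatives had 2 members at an unadjusted p under 0.05 and higher, against 7 with all libraries, in edgeR's test.

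Transport and assimilation of nutrients lay higher in part. Mineral nutrient transporters had 7 of 45 tested members separated and higher, 15.6%, and none separated and lower, with a median log2 fold change of 0.38 that lay at 0.2 without day 6 replicate 2 and at 0.85 without day 2 replicate 2. The high affinity nitrate transporter LOC_Os02g38230-ext, a part of nitrate uptake at low supply, was at 8.26 and 6.78 CPM on day 2 and at 163 and 50.7 CPM on day 6. The inorganic phosphate transporter LOC_Os10g30790-ext was at 50.8 and 100 CPM and then at 453 and 278 CPM, and the potassium transporter LOC_Os04g32920 at 31.4 and 75 CPM and then at 379 and 168 CPM. In the tips the last of these hardly differed, at means of 55.3 and 62.4 CPM. The ammonium transporter LOC_Os04g43070 was at 15.9 and 16.5 CPM and then at 84.4 and 72.6 CPM, and here the tips showed a difference of the same direction, from a mean of 16.2 CPM to 126 CPM. Nitrogen assimilation enzymes had none of 19 tested members separated, yet 15 of 19 lay above 0 in log2 fold change, against 48.7% of all tested rows, with a median of 0.73 (0.27 without day 6 replicate 1). The nitrite reductase LOC_Os01g25520-ext was at 3080 and 3710 CPM and then at 6870 and 5400 CPM, and the glutamine synthetase LOC_Os03g12290 at 116 and 300 CPM and then at 676 and 523 CPM. The group's share of counts was 0.559% and 0.583% on day 2 and 0.906% and 0.929% on day 6.

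Iron and metal homeostasis genes had 10 of 85 tested members separated and higher, 11.8%, and 1 separated and lower. The metal cation transporter LOC_Os05g39540-ext was at 20.3 and 49.9 CPM on day 2 and at 170 and 186 CPM on day 6. The lower row was the metallothionein LOC_Os01g74300, a small protein that binds metals through cysteines, at 846 and 1520 CPM and then at 290 and 244 CPM. In the tips the same row had means of 4.07 CPM on day 2 and 39.1 CPM on day 6. Of all tested rows it had the smallest unadjusted p for the difference of the time contrast between mature root and tip, 5.67e-05, with log2 fold changes of -2.15 in mature root and 3.18 in the tip. Metallothioneins resemble each other, so reads may be shared among copies. Of the aquaporins, the water channels of membranes, 2 of 20 tested members were separated and higher, 10% against 3.71%. LOC_Os02g41860-ext was at 440 and 299 CPM and then at 1570 and 918 CPM.

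WRKY factors, regulators of many defence genes, had 10 of 61 tested members separated and higher, 16.4%, and 1 separated and lower. OsWRKY71 (LOC_Os02g08440-ext), the most abundant of the separated rows, was at 57.8 and 57.6 CPM on day 2 and at 223 and 261 CPM on day 6. OsWRKY24 (LOC_Os01g61080) was at 3.18 and 2.9 CPM and then at 45.1 and 22.4 CPM, and OsWRKY70 (LOC_Os05g39720) at 5.08 and 5.81 CPM and then at 48.2 and 32.4 CPM. The lower row was LOC_Os07g40570, at 12.7 and 18.9 CPM against 4.91 and 5.4 CPM. Jasmonate genes had 6 of 29 tested members separated and higher, 20.7%, and 1 lower. The 12-oxophytodienoate reductase LOC_Os06g11210, an enzyme of jasmonate synthesis, was at 10.2 and 20.8 CPM and then at 381 and 72.6 CPM. The ZIM domain protein LOC_Os10g25230, of a family that includes the jasmonate repressors, was at 0.635 and 0 CPM and then at 58.1 and 11.3 CPM. The lower one was the jasmonate O-methyltransferase LOC_Os11g15130, at 5.4 and 20.3 CPM against 1.34 and 0.54 CPM. MYB factors had 7 of 99 tested members separated and higher, 7.07% against 3.71% of all tested rows, and none lower. Among them LOC_Os01g19330 had 0 counts on day 2 and 14.7 and 16.5 CPM on day 6, at least 27.5-fold higher. AP2/ERF factors had 9 of 78 tested members separated and higher, 11.5%, and 1 lower. The dehydration-responsive element-binding protein LOC_Os09g35010-ext, of a branch known for stress responses, was at 9.21 and 2.9 CPM and then at 141 and 66.4 CPM. Gibberellin genes had 8 of 49 tested members separated and higher, 16.3%, and 1 lower, with a median log2 fold change of 0.07. Their largest log2 fold change, 6.19, was also that of the terpene synthases and of the ent-kaurene synthase LOC_Os04g10060 named above. The counts of these groups are therefore not independent of each other. Abscisic acid, LEA and dehydrin genes had 3 of 21 separated and higher, 14.3%, and none lower. Their separated rows included the root cap protein LOC_Os01g73730, which also counts among the root cap genes below. Few rows were separated in some other groups, with 2 of 54 NAC factors on each side, 3.7% against 3.71% and 1.83% of all tested rows. Homeobox factors had 1 of 58 on each side, 1.72%, and ethylene genes 1 of 56, 1.79%.

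Ribosomal proteins took a smaller share of the counts on day 6, while the days overlapped for tubulins and kinesins. Cytosolic ribosomal proteins had a median log2 fold change of -0.45 over 263 tested members, and 61 of the 263 lay above 0. Separated rows were 5 lower and 1 higher, 1.9% and 0.38% against 1.83% and 3.71% of all tested rows, so by that count they did not stand out toward day 2. Their share of counts was 7.01% and 6.5% on day 2 and 4.63% and 4.58% on day 6, while in the tips it was 9.81% to 12.6% and the median log2 fold change was 0.23. The 40S ribosomal protein S5, LOC_Os11g29190-ext, was at 1320 and 1200 CPM and then at 632 and 671 CPM, and the 60S protein L38, LOC_Os11g24610-ext, at 478 and 423 CPM and then at 152 and 204 CPM. Ribosomal protein genes come in close copies, so single rows are uncertain. Tubulins, the subunits of microtubules, took 0.785% ± 0.0632 (SD, n = 2) on day 2 and 0.767% ± 0.0154 (SD, n = 2) on day 6, and kinesins and spindle proteins 0.165% ± 0.027 (SD, n = 2) and 0.172% ± 0.0265 (SD, n = 2). The median log2 fold change of DNA replication proteins was -0.24 and went to 0.15 without day 2 replicate 1.

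Heat shock proteins and chaperones took 4.44% and 3.8% of the counts on day 2 and 2.58% and 2.16% on day 6. The median log2 fold change of the 120 tested members was -0.19, and 2 were separated and lower and 1 higher, 1.67% and 0.833% against 1.83% and 3.71% of all tested rows. The most abundant row, the DnaK family protein LOC_Os11g47760-ext, took 2.3% and 2.06% of the counts on day 2 and 1.2% and 1.04% on day 6. The rest of the group took 1.56 times as large a share on day 2 as on day 6, by the ratio of the means. That row was at 20300 and 21500 CPM and then at 14200 and 9260 CPM. Its tip means were 23100 CPM on day 2 and 17300 CPM on day 6, and the group's share in the tips was 4.92% ± 0.766 (SD, n = 3) on day 2 and 3.63% ± 0.212 (SD, n = 3) on day 6.

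Among genes of cell division several rows rested on 1 library. Separated rows were few in number, on the lower side at shares near that of all tested rows except for histones. DNA replication proteins had 1 of 42 separated and lower, 2.38%, and kinesins and spindle proteins 2 of 57, 3.51%, against 1.83% of all tested rows. Neither group had a row separated and higher, against 3.71%. Cyclins and their kinases had 1 of 62 on each side, 1.61%. Yet the shares of histones, of cyclins and their kinases and of DNA replication proteins were smaller on day 6 without overlap. Cyclins and their kinases took 0.245% and 0.296% of the counts on day 2 and 0.18% and 0.198% on day 6. DNA replication proteins took 0.0873% and 0.0954% on day 2 and 0.0601% and 0.0701% on day 6. Histones had no separated member among 46, a median log2 fold change of -0.45 (-0.26 without day 2 replicate 2) and a share of 1.39% and 1.65% of the counts on day 2 against 1.06% and 1.08% on day 6. The histone H1 gene LOC_Os04g18090, a linker histone, was at 732 and 949 CPM and then at 493 and 333 CPM. Cyclins and their kinases had 1 separated row on each side, with LOC_Os09g29100 at 34.9 and 38.7 CPM and then 9.83 and 10.8 CPM on the lower side and LOC_Os04g46660-ext at 13 and 13.1 CPM and then 44.2 and 39.9 CPM on the higher. The cyclin-dependent kinase regulatory subunit LOC_Os03g05300-ext was at 57.2 and 357 CPM and then at 25.5 and 33.5 CPM, and the cyclin LOC_Os05g25950 at 1.91 and 188 CPM and then at 5.81 and 10.5 CPM. Both rest on day 2 replicate 2. Factors known in Arabidopsis to keep root meristems going lay lower, with PLETHORA 2 (LOC_Os02g40070) at 184 and 123 CPM and then at 54 and 53.1 CPM, and BABY BOOM (LOC_Os04g42570) at 24.4 and 12.6 CPM and then at 4.47 and 1.62 CPM. These 2 were the separated ones among 5 tested rows with these names, which were looked up after their values were seen, and both lay lower in the tips on day 6 too. Root cap genes, a marker of the tip, had 2 of 7 tested members separated and higher, 28.6%. The root cap protein RCLEA5 (LOC_Os01g73730) was at 1.91 and 1.94 CPM and then at 16.1 and 42.1 CPM. Its tip libraries were uneven, at 119, 5.86 and 13.9 CPM on day 2 and 12.3, 56.7 and 35 CPM on day 6. The growth regulating factor LOC_Os02g53690 was at 37.1 and 197 CPM and then at 5.81 and 11.3 CPM in mature root, but at means of 14.7 CPM and 49.5 CPM in the tips.

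The antenna genes of green tissue were uneven between the pools of a day, and their days overlapped. Chlorophyll A-B binding proteins, the antenna proteins of the photosystems, had 13 tested members and none separated. The most abundant ones, such as LOC_Os01g41710-ext at 311 and 701 CPM on day 2 and 1030 and 489 CPM on day 6, overlapped. Day 6 replicate 1 was the highest of the 4 libraries in 10 of the 13 rows. Together they took 0.234% and 0.368% of the counts on day 2 and 0.519% and 0.283% on day 6, against 0.00441% to 0.0131% in the tips. Their median log2 fold change was 0.3 and went to -0.04 without day 6 replicate 1 and to 1.3 without day 2 replicate 2. Chlorophyll synthesis and carbon fixation genes took 0.0422% and 0.0442% of the counts on day 2 and 0.0849% and 0.0489% on day 6, which did not overlap. Of their 15 tested members 1 was separated and higher, 6.67% against 3.71% of all tested rows. Their median log2 fold change of 0.29 went to -0.38 without day 6 replicate 1. With all 4 mature root libraries kept, it ran from -0.39 to 0.39 across the other ways of processing. The 4 separated and higher rows of the wider photosynthesis group were plastocyanin-like proteins, copper proteins of which many have no part in photosynthesis. The 2 separated and lower ones were the psbP-related protein LOC_Os01g43070, at 13.3 and 41.6 CPM and then at 4.47 and 4.59 CPM, and the thylakoid lumen protein LOC_Os08g40160, at 21.3 and 16 CPM and then at 6.7 and 7.01 CPM.

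**Figure D4:**
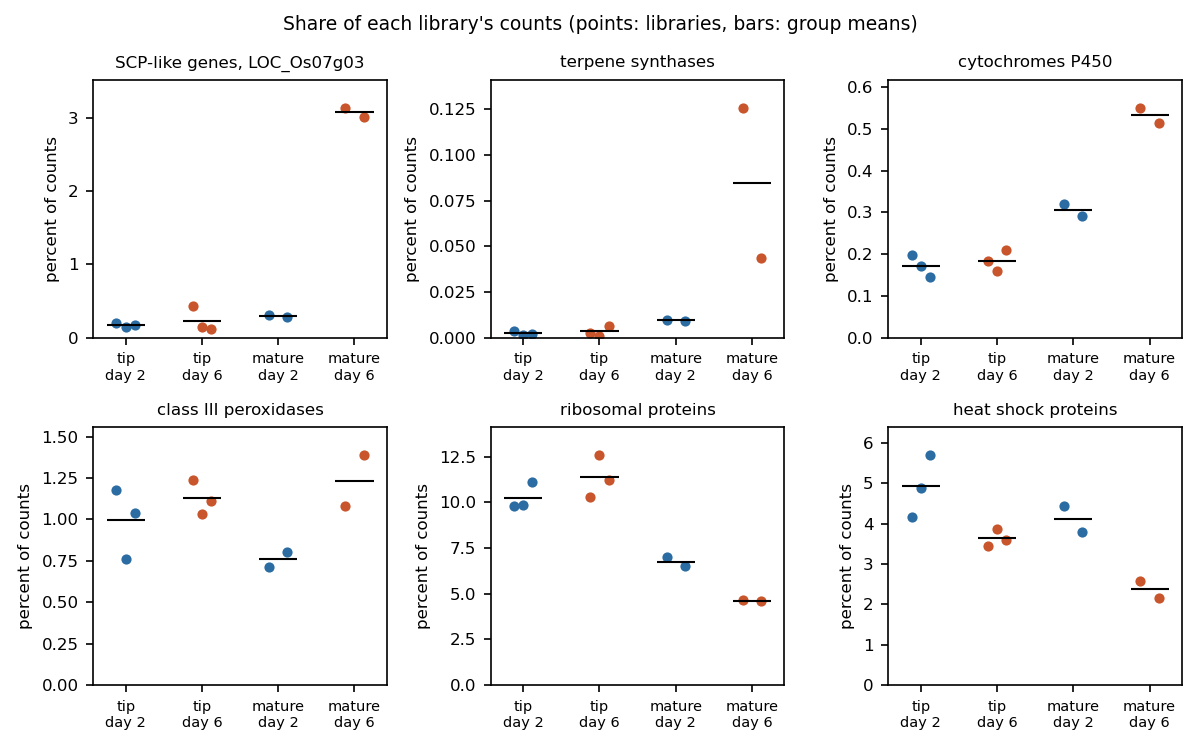
Percent of each library's counts taken by 6 gene groups, with points for single libraries and bars for group means, in the tips and in mature root on both days. The SCP-like stretch stands at 3.14% and 3.01% in mature root on day 6 and at most at 0.431% elsewhere, while ribosomal proteins are at 4.63% and 4.58% there and above 6% in all other libraries.

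The time differences of mature root were set against those of the tips on the same days. With edgeR's quasi-likelihood test of that difference, 0 rows were called at an adjusted p under 0.05, the smallest adjusted p was 0.513, and 1821 rows, 9.47%, had an unadjusted p under 0.05. DESeq2 called 81. The time contrast of the tips itself had 0 rows called and 2063, 10.7%, at an unadjusted p under 0.05. In the 714 rows separated and higher in mature root, the median log2 fold change was 2.48 in mature root and 0.29 in the tips, and 429 of the 714 had the same sign in both. In the 352 rows separated and lower the medians were -2.17 and -0.26, and 210 of the 352 had the same sign. Since these rows were chosen for their difference in mature root, a smaller one in the tips is not a result about tissue. Of the 5 rows with the smallest p for the difference, the kinase LOC_Os03g06880, of the pfkB family of sugar kinases, was at 42.5 and 145 CPM and then at 5.81 and 7.82 CPM in mature root, and at means of 8.5 CPM and 35.7 CPM in the tips. The row LOC_Os04g51680-ext, a hypothetical protein, went the other way, at 5.08 and 6.78 CPM and then at 36.6 and 18.9 CPM in mature root and at means of 11.7 CPM and 1.23 CPM in the tips. The expressed protein LOC_Os07g48280 was at 24.8 and 18.9 CPM and then at 281 and 225 CPM, while its tip means were 57.6 CPM and 33.7 CPM.

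**Figure D5:**
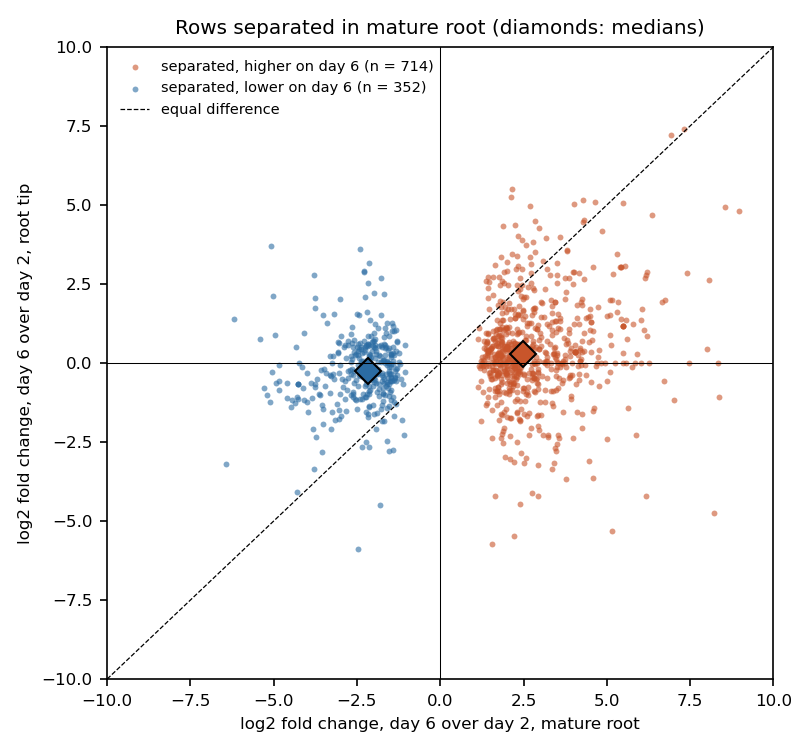
Log2 fold change of day 6 over day 2 in mature root (x axis) and in the tips (y axis) for the 714 rows separated and higher in mature root (orange) and the 352 separated and lower (blue); diamonds are the medians and the dashed line marks equal differences. The medians lie at 2.48 and -2.17 on the x axis and at 0.29 and -0.26 on the y axis.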

How the data were processed

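Polyadenylated RNA of 10 pools was made into Illumina mRNA libraries and sequenced. What the authors deposited is a matrix of raw read counts, 1 row per gene model or transcribed region, which its header and its whole-number values show to be unscaled. Among upstream tools, Bowtie, SAMtools 0.1.12a, TopHat 1.3.1 and Cufflinks 1.0.3 appear per the submitters' processing notes. Not given in the sources used here are the genome build, the counting tool, the use of strand and the meaning of the ending -ext. Without strand, antisense or overlapping genes cannot be told apart. No molecular identifiers are mentioned, so intervals and floors cover the counting of reads only.

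The tests used edgeR 4.0.16 (which builds on limma 3.58.1) under R 4.3.3. The filter was filterByExpr over the 4 groups (minimum count 10, minimum total 15). Libraries were scaled by TMM, and the model was fitted with 1 mean per group over all 10 libraries, so that the tips share the estimate of spread. P-values measure the spread between pools, described in the labels as biologically independent. For a single value, the exact permutation test of 2 against 2 libraries cannot go below a two-sided p of 0.333 and was not used. The steps were tested on simulated counts.

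Gene groups are 43 patterns on the deposited descriptions, and 8 more were added after seeing the values. The members and lists were chosen with earlier results of these data known. Genes were named by a rule: the 10 separated, described rows with the largest fold change per direction at 20 CPM or more, the most abundant and up to 3 leading separated members of each group, the 10 smallest p and the 5 smallest p for the difference from the tip. Further members are given beside these to show the range of a group, and were chosen after their values were seen. Alternatives were DESeq2 1.42.0 size factors and test, library totals, other filters, robust dispersion, mature root alone, a replicate block, other gaps and each library left out; separated counts without a library were added after seeing the data.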

Additional observations from a re-analysis of the deposited data

How the results depend on the processing

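The count of called rows depended on the test and the filter. Against 0 higher and 0 lower in the fit described above, DESeq2 gave 257 higher and 116 lower (81 for the difference from the tip), no filter on low counts gave 438 and 298 (554), and the fit of mature root alone gave 3 higher. Of the 373 DESeq2 calls, 247 were separated in the same direction. With 1 library left out the count ran from 0 to 57 higher, from 0 to 1 lower and from 0 to 2 for the difference: without day 6 mature root replicate 2 it was 57 higher and 2 for the difference, without day 6 tip replicate 1 it was 10 higher and 1 lower, and otherwise 0. DESeq2 size factors, library totals, the stricter filter and robust dispersion left it at 0. The cause was not tested.

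A gap of 1.5-fold gave 1367 and 952 separated rows and a gap of 3-fold 331 and 100. With a mature root library left out, an alternative chosen after seeing the data, the counts ran from 1328 to 2231 higher and from 688 to 1825 lower, each day then being held by fewer libraries; the extremes are without day 2 replicate 2 and day 6 replicate 2 for higher, and without day 6 replicate 1 and day 2 replicate 1 for lower. The median log2 fold change of all rows moved from -0.0319 to between -0.171 and 0.172 when a library was left out, and to -0.11 with library totals. Of 202 named genes, 19 changed sign and 99 were called in some alternative.

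Replicate numbers showed no pairing of the samples. The correlation of deviations between same-numbered libraries was -0.00433 in mature root and -0.0369 to 0.0163 in the tips. With 2 libraries per day the deviations of replicates 1 and 2 mirror each other. Mature root thus gives a single value, which cannot settle whether the numbers pair its libraries. The replicate block gave 0 calls with all 10 libraries and 104 higher and 13 lower with mature root alone, of which 116 of 117 were separated in the same direction.

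Depth limits the rows at 0 on a day, where 3 counts over both libraries correspond to 0.575 CPM on day 2 and 0.505 CPM on day 6.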

Other observations

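Some families in mature root held separated rows on both sides. Glutathione S-transferases, which attach glutathione to reactive compounds, had 3 of 46 tested members separated and higher on day 6 and 2 lower, 6.52% and 4.35% against 3.71% and 1.83% of all tested rows, a difference of few rows. LOC_Os10g38360 was at 43.2 and 62.9 CPM on day 2 and at 239 and 161 CPM on day 6, whereas its neighbour in number LOC_Os10g38700 was at 40.6 and 37.8 CPM and then at 11.2 and 5.67 CPM. GDSL lipases, a family added after its values were seen, had 8 of 55 tested members separated and higher and 3 lower, 14.5% and 5.45%, and here too neighbours differed. LOC_Os01g11650 was at 46.7 and 51.8 CPM and then at 530 and 165 CPM, while LOC_Os01g11710 was at 12.4 and 81.3 CPM and then at 0.893 and 2.16 CPM. The aspartic proteinases LOC_Os10g39300 and LOC_Os10g39260 were the separated and lower proteases, with LOC_Os10g39300 at 70.2 and 57.1 CPM and then at 10.7 and 7.28 CPM.

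Peptide and amino acid transporters had 7 of 101 tested members separated and higher, 6.93% against 3.71% of all tested rows, and none lower, and their shares of counts overlapped between days. The amino acid transporter LOC_Os01g41420-ext was at 0.635 and 0 CPM and then at 23.7 and 36.2 CPM. RING-H2 finger proteins of the ATL type, ubiquitin ligases added after their values were seen, had 7 of 16 tested members separated and higher, but 5 of these rows had counts identical to another row, at 6.35 and 1.94 CPM and then 81.7 and 59.9 CPM in LOC_Os02g35347-ext, so they amount to few signals.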
